A study of Mus musculus with 9 samples.

Results

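The Sox and T-box genes are 2 families of transcription factors that specify cell types in the embryo. The set described here held the 31 protein-coding genes named Sox or Tbx with a number, with 1 Sox gene not reported here, out of 55401 genes in the deposited count table. It contained 18 Sox genes (Sox1 to Sox8, Sox10 to Sox15, Sox17, Sox18, Sox21 and Sox30) and 13 Tbx genes (Tbx1 to Tbx6, Tbx10, Tbx15 and Tbx18 to Tbx22). The members were chosen by name and gene type and by no measured value, although earlier results of these data were known.

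The libraries came from poly(A) RNA of testes of wild-type male mice, to which no treatment is recorded, and the labels give no age. Libraries of 3 kinds were compared, with 3 of each. Input libraries held the RNA before precipitation. acRIP libraries held RNA recovered with an antibody against N4-acetylcytidine (ac4C), an acetylated cytidine that the enzyme NAT10 writes on RNA, and IgG libraries held RNA recovered with an isotype control antibody that should bind no modification. The comparison of acRIP with both controls addressed which mRNAs carry ac4C in testis. The comparison of IgG with input set RNA recovered without the ac4C antibody against the RNA before precipitation. All groups shared genotype, sex and tissue. The labels do not say whether replicates came from separate animals or separate precipitations, so the p-values below measure the spread between these libraries, which may be technical. Input RNA was diluted to a fixed concentration before cDNA synthesis, whereas the RNA recovered by either antibody was too scarce to quantify. Both recovered groups may therefore differ from input in RNA amount as well as in recovery, and these cannot be told apart.

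Sox proteins bind DNA through an HMG box, a domain that bends the double helix, and are sorted into groups named with letters by how alike these boxes are. T-box proteins bind DNA through the T-box domain first described in Brachyury. In the adult testis Sox30 is known as a factor of haploid germ cells, Sox5 and Sox6 are transcribed in spermatids, Sox8 helps to maintain Sertoli cells and Sox3 is found in spermatogonia, while most other members are known from embryonic organs.

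Library totals ran from 22023925 to 31340090 counts in input, from 14647542 to 18786779 with IgG and from 16025779 to 18639134 in acRIP. Genes with a count numbered 28552 to 29642 per input library, 26204 to 26874 with IgG and 22206 to 22402 in acRIP. Absence from acRIP was thus more frequent over all genes, also beside IgG libraries of similar totals. Among counts of 1 to 20, between 81.9% and 84.3% per library were even, so the number of independent fragments may be lower than the number of counts. The markers were those of adult testis, with the 5 spermatid markers, led by the protamine Prm1, summing to 25961 to 29863 FPKM per input library. The 7 Sertoli markers summed to 260 to 271 FPKM, mostly from Clu and Cldn11 (input means of 220 and 36.9 FPKM). Of the same list, Dmrt1, Gata4 and Amh had input means of 1.72, 0.388 and 0.174 FPKM, and Rhox5 had 0 counts in every library. FPKM is the count per kilobase of gene length, scaled to a common library total.

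The study names CNCAGNNC, with the second and seventh bases not G and the sixth C or G, as the motif of its testis ac4C peaks. Matches on the transcript strand, overlapping ones included, were present in 29 of the 31 Sox and T-box transcripts and in 77.5% of 15514 tested protein-coding transcripts. The sites below are the first matches inside the coding sequence whose window, with 11 bases on each side, lies in 1 coding exon. They are shown for 4 of the 6 members that were higher in acRIP than in both controls, so that they can be set against those of members that were lower. Of the other two, Sox14 had no match in its coding sequence and the single coding match of Tbx19 had no such window. Capitals mark the 8 matched bases, written 5′ to 3′ as DNA from GENCODE transcripts (mm10), and all of them are coding exon sequence.
Sox1, chr8:12397464-12397493, plus strand, the single exon: gcactcgctgcCACAGCACtaccagggcgc
Sox3, chrX:60892269-60892298, minus strand, the single exon: tgaagtcggagCCCAGCTCtccgccgcccg
Sox10, chr15:79156403-79156432, minus strand, exon 5 of 5: cccaacgggcaCCCAGGCCatgtgggtagc
Sox13, chr1:133387125-133387154, minus strand, exon 8 of 14: tgcagctgctgCACAGCCCgcctgcccctg

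Of the 5 members that were lower in acRIP than in both controls, 3 held the same motif in their coding sequence, and the following sites are printed to show it, with the same capitals. Sox11 had its 2 matches outside the coding sequence and Tbx18 had no match. A match describes the letters and does not show that a site is acetylated.
Sox7, chr14:63947908-63947937, plus strand, exon 2 of 2: ctggcttcctcCTCAGCTCcctctctcgtg
Sox18, chr2:181671475-181671504, minus strand, exon 1 of 2: cggctacggcgCACAGGACgacccgccctc
Tbx4, chr11:85890105-85890134, plus strand, exon 2 of 9: agggccccgggCCCAGCTCtcggggaggcc

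Sox and T-box transcripts were scarce in whole testis. The 31 genes together took between 0.0277% and 0.0281% of the counts of an input library, and Sox5, Sox6 and Sox30 held between 82.7% and 83.7% of those. All 31 members had a count in at least 1 input library, but mean input levels were above 1 FPKM for 7 members, between 0.1 and 1 FPKM for 12 and below 0.1 FPKM for 12. In whole tissue, fewer cells of a type and less RNA per cell cannot be told apart.

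Sox30, the only member of the SoxH group, had the highest input level per kilobase of merged exons, at 9.92, 11.5 and 9.58 FPKM in input replicates 1 to 3. Sox5 and Sox6, which encode SoxD proteins without a known transactivation domain, followed at 8.20 ± 0.0855 and 5.66 ± 0.175 FPKM (SD, n = 3). Tbx5, a factor of heart and forelimb, came next at 3.08 ± 0.314 FPKM. The libraries of these 4 genes did not overlap, so on this scale their order held in every input library. It depends on the length used, since per kilobase of the transcript with the longest coding sequence Sox6 (28.9 ± 0.892) and Sox5 (16.3 ± 0.170) were above Sox30 (10.3 ± 1.05). Below them Sox18 (2.17 ± 0.542 FPKM) and Sox17 (1.31 ± 0.231 FPKM), 2 SoxF genes of endothelium, lay closer to one another, since the lowest Sox18 library (1.58 FPKM) and the highest Sox17 library (1.57 FPKM) nearly met. Sox8 (1.05 ± 0.128 FPKM), Tbx22 (0.970 ± 0.0956 FPKM) and Tbx19 (0.837 ± 0.194 FPKM) overlapped in their ranges over the libraries, and of these Tbx22 was above Tbx19 in each of the 3 input libraries while Sox8 changed place. The lowest were Sox2, Sox21 and Tbx20, with at most 4 counts in any input library.

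**Figure D1:**
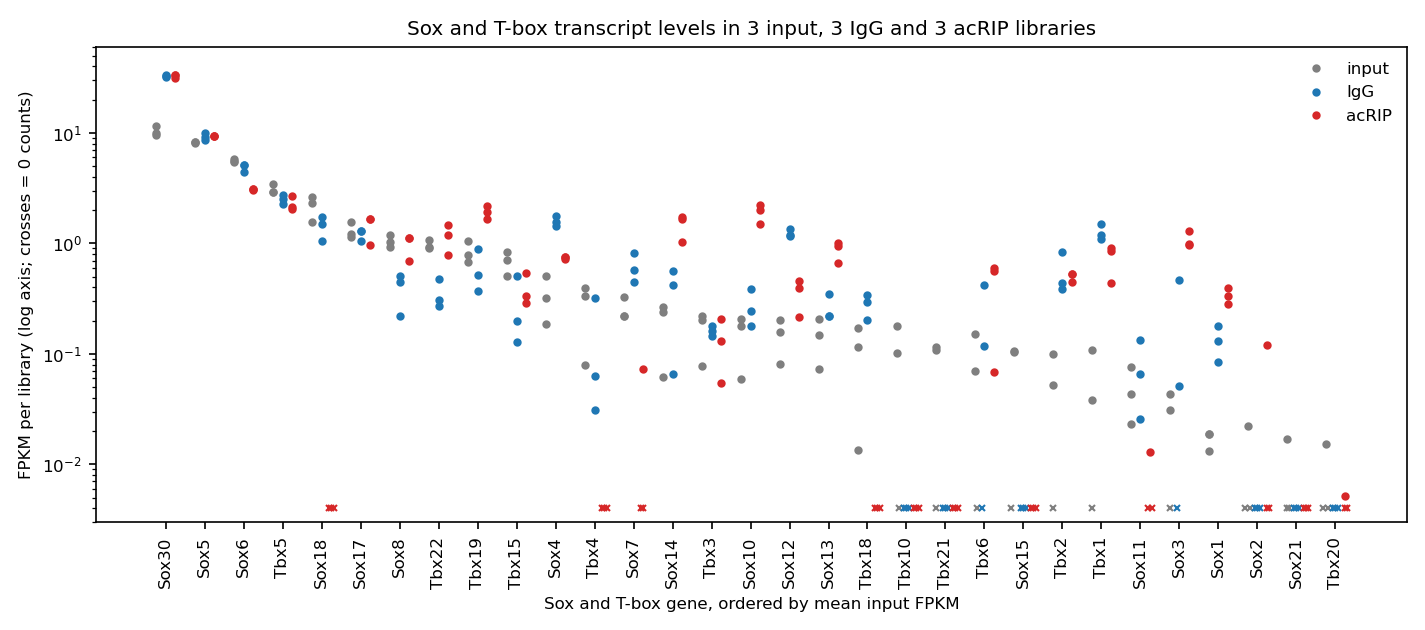
FPKM of the 31 Sox and T-box genes in each library (y axis, log scale), ordered along the x axis by mean input FPKM. Each point is 1 library, coloured by group, and crosses at the bottom mark libraries with 0 counts. Sox30, Sox5, Sox6 and Tbx5 lead in input, and acRIP crosses without acRIP points stand at Sox18, Tbx4 and Tbx18 among tested genes.

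Of the 31 members, 25 had enough counts for testing, and Sox2, Sox15, Sox21, Tbx10, Tbx20 and Tbx21 did not, with no library above 10 counts and 0 counts in all IgG libraries. Each gene was tested with edgeR's quasi-likelihood test, and a call needed an adjusted p under 0.05 (Benjamini-Hochberg over 22510 tested genes) and a fold change over 2. Against IgG, 8 members were higher in acRIP and 7 were lower, where 11.5% and 20.9% of all tested genes and 9.01% and 19.7% of protein-coding genes were called. Against input, 12 were higher and 5 lower, against 17.7% and 22.9% of all tested genes and 16.0% and 21.7% of protein-coding genes. Both comparisons use the same acRIP libraries, so they are not independent of each other. The median log2 fold change of the 25 members was 0.05 over IgG and 0.33 over input, beside -0.09 and -0.10 for all tested genes. Setting members at 0 counts to their bounds could not change these medians, since those members stay below them.

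Both comparisons put acRIP higher for 6 members, namely Sox1, Sox3, Sox10, Sox13, Sox14 and Tbx19, where 7.88% of all tested genes and 5.88% of protein-coding genes were so called. Both put acRIP lower for 5, namely Sox7, Sox11, Sox18, Tbx4 and Tbx18, where 17.0% of all tested genes and 16.1% of protein-coding genes were called. For these 11 genes the acRIP libraries did not overlap with those of either control. This adds no separate support, since the genes were chosen by calls on the same libraries. Sox1 and Sox3 also passed the filter on low counts only through acRIP, so their place among the tested genes depended on it. The share among all genes so called was not counted. The 6 and 5 genes were all from the 20 tested members in the least abundant of 3 equal classes of protein-coding genes by mean count (3.78 to 106 counts per library), and in that class 13.3% of genes were higher and 36.6% lower than both controls. The share of members lower than both was therefore below that of genes of like abundance, and the share of those higher was above it, as a description without a test.

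**Figure D2:**
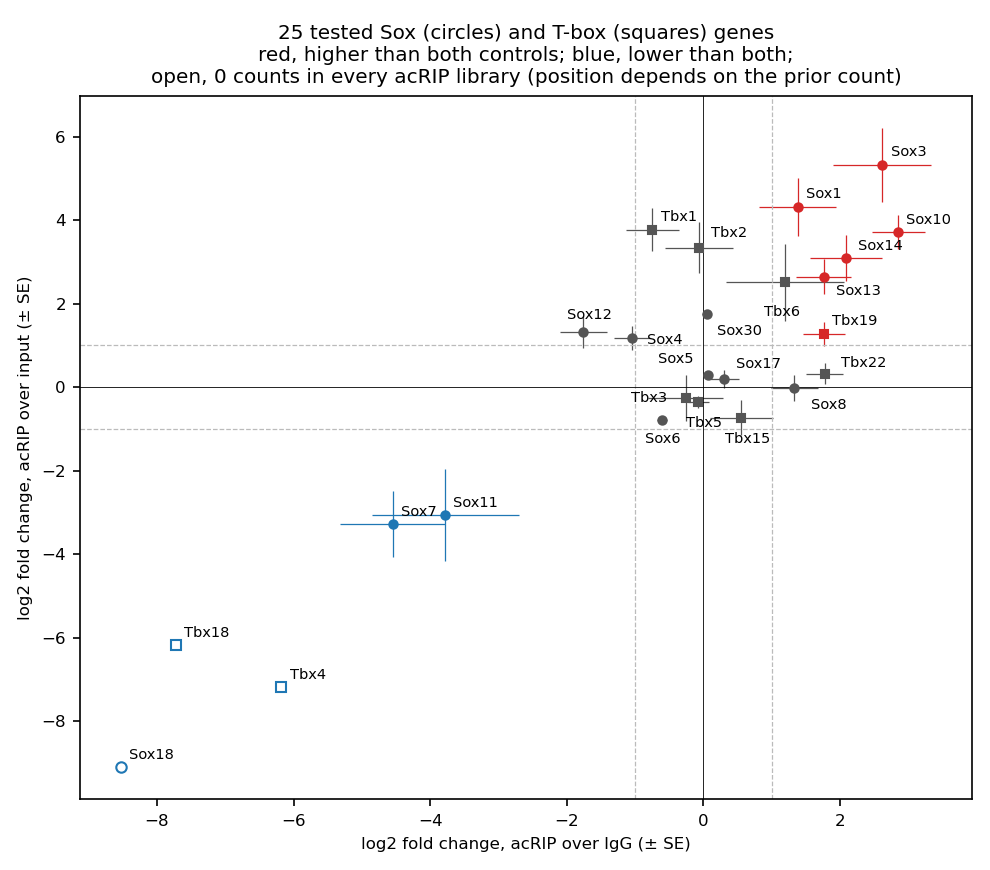
log2 fold change of acRIP over IgG (x axis) and over input (y axis) for the 25 tested genes, with bars of 1 SE and dashed lines at a fold change of 2. Red points are the 6 genes higher than both controls and blue points the 5 lower than both. Open points are Sox18, Tbx4 and Tbx18, whose acRIP libraries all had 0 counts, so their position depends on the prior count and no SE is drawn.

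Among the SoxB1 genes, which keep neural progenitors undifferentiated, both tested members were higher in acRIP than in either control. Of all tested genes, 7.88% were so called. Both members passed the filter on low counts only with their acRIP libraries included. Being tested and being higher in acRIP were therefore not independent for them. Sox3 (chrX:60891366-60893430, 1 exon) had 32, 50 and 34 counts in acRIP replicates 1 to 3, 0, 2 and 18 with IgG and 2, 0 and 2 in input. Every acRIP library thus stood above every control, and IgG replicate 3 stood above the other two IgG libraries. On the log2 scale acRIP differed from IgG by 2.62 ± 0.72 (SE) (adjusted p = 0.00212) and from input by 5.33 ± 0.89 (adjusted p = 3.52e-06). With 4 input counts in all, the ratio of acRIP to input was 45.0, with a 95% interval from 17.1 to 168 that covers counting error only. It treats each count as an independent fragment, so it is too narrow if fragments were fewer than counts. All Sox3 counts were even. Without IgG replicate 3 the difference from IgG was larger, at 5.16 on the log2 scale.

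Sox1 (chr8:12395295-12400126, 1 exon) gave 22, 30 and 32 counts in acRIP, 6, 12 and 16 with IgG and 2 in each input library. The 3 groups did not overlap and lay in the order input, IgG, acRIP. The difference from IgG was 1.38 ± 0.56 (adjusted p = 0.0327) and that from input 4.32 ± 0.70 (adjusted p = 2.13e-06), both as log2 fold changes, and the ratio to input by pooled counts was 21.7 (95% counting interval 9.58 to 60.9). All Sox1 counts were even too, so this interval has the same limit as that of Sox3. The call against IgG was lost without IgG replicate 1 (adjusted p = 0.0939), IgG replicate 2 (0.0606), acRIP replicate 2 (0.0703) or acRIP replicate 3 (0.0983). A total of 86 of the exon bases of Sox1 are shared with Gm25239 on the same strand. Sox2, another SoxB1 gene and a pluripotency factor, had 4 counts in 1 acRIP library, 1 count in 1 input library and 0 in the other 7.

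Sox14, a SoxB2 gene that encodes a repressor in neurons, had 58, 64 and 36 counts in acRIP, 2, 22 and 16 with IgG and 4, 12 and 11 in input (chr9:99874106-99876170). The acRIP libraries were all above the controls, which overlapped one another. In the fit, the log2 fold change came to 2.09 ± 0.53 against IgG (adjusted p = 0.00103) and to 3.10 ± 0.56 against input (adjusted p = 1.17e-05). Sox21, the other SoxB2 gene, had 2 counts in 1 input library and 0 elsewhere.

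Sox10, a SoxE gene of neural crest and Schwann cells, had a difference from IgG close in size to that of Sox3, with a smaller error. It had 74, 115 and 114 counts in acRIP, 8, 14 and 22 with IgG and 20, 4 and 12 in input (chr15:79154908-79165240). The 3 acRIP libraries lay well apart from the 6 controls, which overlapped. Measured as log2 fold changes, the difference was 2.85 ± 0.39 from IgG (adjusted p = 2.05e-07) and 3.71 ± 0.40 from input (adjusted p = 9.99e-10).

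Sox8, the other SoxE member and a Sertoli cell factor, was called against IgG and not against input. It had 56, 40 and 59 counts in acRIP, 10, 30 and 26 with IgG and 100, 64 and 82 in input. The acRIP libraries were above those with IgG by 1.33 ± 0.35 on the log2 scale (adjusted p = 0.00138), the IgG libraries were below input (log2 fold change -1.35 ± 0.34, adjusted p = 0.00124), and acRIP and input differed by -0.02 ± 0.31 (adjusted p = 0.955). Sertoli markers summed to 197 to 203 FPKM in acRIP, 221 to 233 with IgG and 260 to 271 in input, and 0 of the 5 tested were called against IgG by edgeR or DESeq2, with 2 higher and 3 lower at an unadjusted edgeR p under 0.05. Clu made up most of these sums, with means of 153 FPKM in acRIP, 182 with IgG and 220 in input. About 10.6% of the Sox8 exon bases are shared with 2810468N07Rik on the opposite strand, and the use of strand in counting is not stated.

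In the SoxD group only Sox13, known from lymphocytes and as an islet autoantigen, passed against both controls, with 70, 53 and 69 counts in acRIP, 14, 18 and 28 with IgG and 28, 14 and 7 in input (chr1:133382303-133424377). All acRIP libraries exceeded all controls after scaling. Against IgG the log2 fold change was 1.76 ± 0.40 (adjusted p = 0.000341), and against input it was 2.65 ± 0.42 (adjusted p = 1.32e-06).

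The 2 abundant SoxD genes showed small differences with narrow errors. Sox5 had 2173, 2529 and 2273 counts in acRIP, 1946, 2685 and 2315 with IgG and 3651, 2611 and 2634 in input (chr6:143828425-144781977), and it differed from IgG by 0.07 ± 0.05 (adjusted p = 0.229) and from input by 0.28 ± 0.05 (adjusted p = 1.61e-05) on the log2 scale. Its level was therefore near that of IgG and slightly above input, by less than the required fold. Sox6 had 733, 846 and 773 counts in acRIP, 1104, 1429 and 1213 with IgG and 2602, 1802 and 1926 in input (chr7:115470872-116038796). All its acRIP libraries were below all controls after scaling, by -0.61 ± 0.07 against IgG (adjusted p = 7.42e-09) and -0.79 ± 0.07 against input (adjusted p = 5.04e-12) on the log2 scale, again under the required fold. Sox5 shares 9.25% of its exon bases with the antisense gene Sox5os1.

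Tbx19, the corticotroph factor that drives Pomc in the pituitary, was the only Tbx member higher than both controls. Its counts were 86, 114 and 116 in acRIP, 42, 31 and 22 with IgG and 78, 74 and 48 in input (chr1:165137855-165160773). After scaling, the acRIP libraries were above all controls and the IgG and input libraries overlapped. The difference from IgG was 1.76 ± 0.30 (adjusted p = 7.95e-06) and that from input 1.28 ± 0.28 (adjusted p = 0.000167), both as log2 fold changes, and the latter was not called by a test for changes larger than 2-fold.

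The SoxF genes, Sox7, Sox17 and Sox18, which act together in endothelial and lymphatic cells, split in acRIP. Sox18 (chr2:181669836-181671640) had 0 counts in every acRIP library, 41, 46 and 32 with IgG and 80, 94 and 83 in input. No control library was below 32 counts, and the fit put acRIP below IgG (adjusted p = 3.54e-09) and below input (adjusted p = 9.43e-11). Set against a floor of 3 counts per acRIP library, Sox18 was at least 12.8-fold higher with IgG and at least 18.96-fold higher in input. Its transcript was thus present in testis RNA and recovered by the control beads, and it was not detected in acRIP. The acRIP libraries held counts for fewer genes than either control, so such absence was not particular to Sox18.

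Sox7 had 0, 0 and 4 counts in acRIP, 28, 28 and 50 with IgG and 34, 16 and 16 in input (chr14:63943673-63950732). All of the acRIP counts lay in replicate 3, below every control. In the fit, the log2 fold change came to -4.55 ± 0.77 against IgG (adjusted p = 6.27e-06) and to -3.27 ± 0.80 against input (adjusted p = 0.000526). Without acRIP replicate 2 these were -3.96 and -2.68. Without acRIP replicate 3 acRIP was at 0 counts, and the fitted values, which then depend on the prior count, were -8.37 and -7.09. In contrast, Sox17 had 126, 149 and 78 counts in acRIP, 90, 116 and 94 with IgG and 235, 120 and 128 in input (chr1:4490931-4497354), and the 3 groups overlapped. Measured as log2 fold changes, the difference was 0.29 ± 0.22 from IgG (adjusted p = 0.252) and 0.21 ± 0.22 from input (adjusted p = 0.393). It shares 16.8% of its exon bases with Gm37587 on the opposite strand.

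Endothelial markers did not move one way with the SoxF genes. Of the 6 markers, Cdh5 and Tek were higher in acRIP than in both controls and Pecam1 was lower than both, while the summed level was 5.54 to 7.24 FPKM in acRIP, 2.00 to 2.64 with IgG and 2.24 to 2.76 in input. Tie1 was lower than input (log2 fold change -1.51 ± 0.65, adjusted p = 0.0378) and was not called against IgG (-1.40 ± 0.67, adjusted p = 0.0667). Tie1 had a 0 in 1 acRIP library and no other marker of the 6 was at 0. The part of these differences in the SoxF results was not tested.

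The SoxC genes, which act in progenitors of neurons and other tissues, were lower in acRIP than with IgG in 3 of 3 cases. Of all tested genes 20.9% were so called, and of protein-coding genes 19.7%. Sox11 (chr12:27334264-27342574) was also lower than input, with 0, 2 and 0 counts in acRIP, 8, 21 and 4 with IgG and 6, 8 and 14 in input. Control libraries held few counts themselves, and IgG replicate 2 was the highest. Against IgG the log2 fold change was -3.78 ± 1.07 (adjusted p = 0.00284), and against input it was -3.06 ± 1.11 (adjusted p = 0.0143). The call against input was lost without acRIP replicate 1 (adjusted p = 0.0605), acRIP replicate 3 (0.0612) or input replicate 3 (0.0636). Without acRIP replicate 2 acRIP was at 0 counts, with fitted values of -6.68 and -5.95 that depend on the prior count, and without IgG replicate 2 the value over IgG was -3.03.

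Sox4 and Sox12 were called in opposite directions against the 2 controls, and no other member was. Sox4 (chr13:28948919-28953713) had 56, 68 and 60 counts in acRIP, 109, 130 and 158 with IgG and 76, 34 and 20 in input. After scaling, its acRIP libraries lay between the 2 control groups without overlapping either. The difference from IgG was -1.04 ± 0.27 (adjusted p = 0.00104) and that from input 1.18 ± 0.29 (adjusted p = 0.000506), both as log2 fold changes. Sox4 stood near the required fold, and without IgG replicate 3 the first became -0.95 and without input replicate 3 the second became 0.91, both under it. Sox12 (chr2:152393611-152398063) had 28, 18 and 34 counts in acRIP, 76, 114 and 98 with IgG and 22, 8 and 20 in input. Its acRIP libraries also lay between the control groups, by -1.76 ± 0.34 against IgG (adjusted p = 4.58e-05) and 1.32 ± 0.39 against input (adjusted p = 0.00309).

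Tbx4 and Tbx18, T-box genes of hindlimb and lung and of epicardium and somites, had 0 counts in all 3 acRIP libraries. Tbx4 (chr11:85886422-85916097) had 36, 6 and 30 counts in input and 16, 2 and 4 with IgG, where replicate 1 held most of the counts. It was at least 4.98-fold higher in input than in acRIP (adjusted p = 0.000101) and at least 2.59-fold higher with IgG (adjusted p = 0.00187). The bound against IgG rested on IgG replicate 1, since without it the mean of 0.161 CPM lay under the floor of 0.181 CPM and gave no bound (adjusted p = 0.0310). Tbx18 (chr9:87702800-87731260) had 2, 12 and 18 counts in input and 14, 30 and 26 with IgG. This gave at least 2.54-fold more in input (adjusted p = 0.000711) and at least 7.25-fold more with IgG (adjusted p = 1.67e-05). Without input replicate 3 the bound against input fell to at least 1.64-fold (adjusted p = 0.00482). D030062O11Rik on the opposite strand shares 20.6% of the Tbx18 exon bases.

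**Figure D3:**
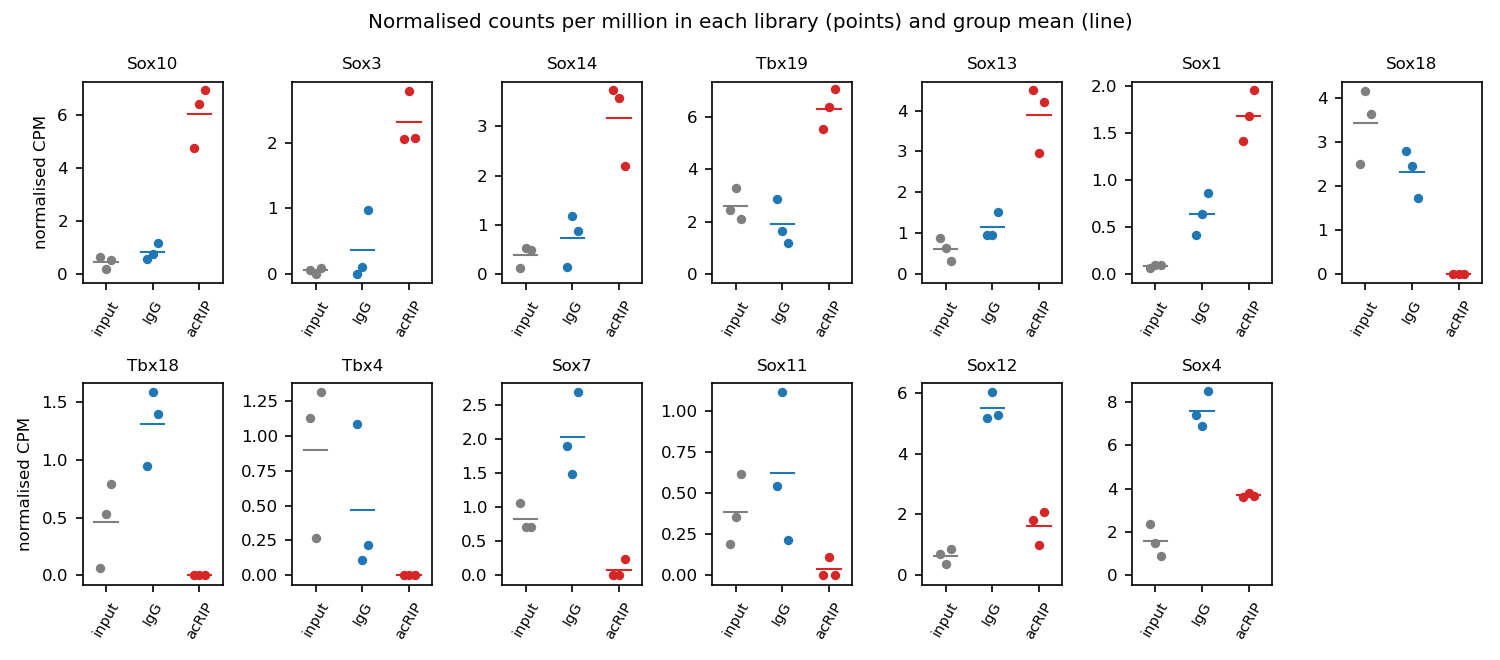
Normalised CPM, counts scaled by library total and TMM factor (y axis, separate for each gene and starting just below 0) in each input, IgG and acRIP library, for the 11 genes called against both controls and for Sox12 and Sox4. Points are libraries and lines are group means. The acRIP points of Sox10, Sox3, Sox14, Tbx19, Sox13 and Sox1 lie above all control points, those of Sox18, Tbx18, Tbx4, Sox7 and Sox11 lie below them, and those of Sox12 and Sox4 lie between the groups.

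Several members also differed between the 2 control groups. IgG libraries were higher than input for 8 of the 25 tested members, Sox1, Sox3, Sox4, Sox7, Sox12, Sox30, Tbx1 and Tbx2, and lower for 3, Sox8, Tbx15 and Tbx22, where 13.5% and 7.22% of all tested genes and 13.1% and 6.24% of protein-coding genes were called. The median log2 fold change of IgG over input was 0.86 in the members and -0.01 in all tested genes. The median of the members was 0.26 without IgG replicate 3, and it was -0.021 with no filter on low counts. Of the 12 members higher in acRIP than in input, 7 were also higher with IgG than in input and 6 were not higher in acRIP than with IgG. These comparisons share the input or IgG libraries. Over all 22510 genes, 3984 passed upward against input, and 1774 of those passed upward against IgG too. Lacking the IgG call was therefore common and not particular to the Sox and T-box genes. The matching share of all genes for the 7 members was not counted.

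Sox30 was among the 8 higher with IgG. It had 1523, 1851 and 1684 counts in acRIP, 1483, 1844 and 1788 with IgG and 932, 762 and 637 in input (chr11:45980310-46017994). The antibody groups overlapped after scaling and both stood above all input libraries. The log2 fold change over input was 1.75 ± 0.07 for acRIP (adjusted p = 1.16e-20) and 1.70 ± 0.07 for IgG (adjusted p = 2.77e-20), while acRIP over IgG was 0.05 ± 0.06 (adjusted p = 0.552). On the FPKM scale its level went from 10.3 ± 1.05 in input to 32.9 ± 0.856 with IgG and 32.8 ± 0.945 in acRIP (SD, n = 3).

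Tbx1, a factor of the pharyngeal arches, and Tbx2, a repressor in heart and limb, followed the same order. Tbx1 had 51, 29 and 50 counts in acRIP, 78, 79 and 72 with IgG and 12, 0 and 3 in input, and its log2 fold change over input was 3.77 ± 0.51 for acRIP and 4.52 ± 0.50 for IgG. Tbx2 had 26, 36 and 32 counts in acRIP, 44, 30 and 26 with IgG and 6, 0 and 8 in input, and the values were 3.34 ± 0.61 and 3.41 ± 0.61. All 4 of these adjusted p values were at most 1.74e-05. Neither gene was called between acRIP and IgG, although the acRIP libraries of Tbx1 all lay below those with IgG (log2 fold change -0.75 ± 0.38, adjusted p = 0.0880). Without input replicate 1 the Tbx1 values rose to 5.18 and 5.93, and without input replicate 3 the Tbx2 values rose to 4.08 and 4.15.

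Calls of IgG against input rested on single libraries for several scarce members. The Sox3 value of 2.71 ± 0.998 (adjusted p = 0.0229) became 0.17 without IgG replicate 3 (adjusted p = 0.930), and its call was also lost without input replicate 1 (0.0517) or input replicate 2 (0.0810) and with the replicate number as a block (0.0569). Sox7, at 1.28 ± 0.54 (adjusted p = 0.0465), lost its call without any of IgG replicates 1 and 3 and the 3 input libraries, at adjusted p of 0.0596 to 0.192. Tbx15, at -1.28 ± 0.44 (adjusted p = 0.0152), lost it without IgG replicate 2, IgG replicate 3 or input replicate 3, and without IgG replicate 1 it was -1.997 and Tbx15 was also called higher in acRIP than with IgG (log2 fold change 1.27, adjusted p = 0.0289). With 1 library left out, calls of IgG over input appeared for Sox13 (input replicate 1), Sox14 (IgG replicate 1), Tbx18 (input replicate 3) and, in the lower direction, Tbx4 (IgG replicate 1).

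The remaining Tbx members gave no call against both controls. Tbx22, known for palate formation, was higher in acRIP than with IgG by 1.77 ± 0.27 on the log2 scale (adjusted p = 1.64e-06) and lower with IgG than in input (-1.45 ± 0.27, adjusted p = 3.51e-05), while acRIP over input was 0.33 ± 0.24 (adjusted p = 0.224). Tbx6, a factor of presomitic mesoderm, was higher in acRIP than in input (2.51 ± 0.93, adjusted p = 0.0164), with 2, 20 and 17 counts in acRIP, 0, 4 and 14 with IgG and 4, 6 and 0 in input. Its groups overlapped, and without IgG replicate 3 it was also called higher than IgG, at 2.67 (adjusted p = 0.0435). The call over input was lost without acRIP replicate 2 or 3 or without input replicate 1 or 3, at adjusted p of 0.0501 to 0.0786, and without input replicate 2 the value was 3.34.

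Tbx5 was uncalled in every comparison. It had 152, 188 and 209 counts in acRIP, 187, 198 and 218 with IgG and 505, 299 and 301 in input (chr5:119832668-119885219), and it differed from IgG by -0.08 ± 0.15 (adjusted p = 0.681) and from input by -0.36 ± 0.15 (adjusted p = 0.0315) on the log2 scale. After scaling, its acRIP libraries overlapped with IgG and lay below all input libraries, by less than the required fold. Tbx3 had between 6 and 32 counts in each library, and its 3 log2 fold changes lay between -0.26 and 0.01 with SEs of 0.52 to 0.55. Among the untested members, Sox15, Tbx10, Tbx20 and Tbx21 had at most 2, 10, 4 and 9 counts in any library, all but 1 count of Tbx20 in input.

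Genes of both families with other names were compared in the same fit. Tbr1, a T-box factor of cortical neurons, had 128, 150 and 140 counts in acRIP, 0 in every IgG library and 6, 32 and 4 in input. Its acRIP level was at least 48.0 times that with IgG (adjusted p = 1.19e-10) and exceeded input by 3.88 ± 0.45 on the log2 scale (adjusted p = 8.86e-09). Eomes and Mga, the other tested T-box relatives, were higher than input in both acRIP and IgG and were not called between these, and T, which encodes Brachyury, had 0 counts in all 9 libraries. Of 7 tested HMG-box relatives, 0 were higher and 1 lower in acRIP than with IgG, the lower gene being Hbp1 (log2 fold change -1.04 ± 0.11, adjusted p = 1.96e-09). Against input 3 were higher, Cic, Tcf7 and Tcf7l2, and 1 lower, Hbp1. DESeq2 also called 0 higher and 1 lower against IgG, and at an unadjusted p under 0.05 the edgeR counts were 3 and 2. Sry, the testis-determining gene, had 2 counts in 1 IgG library and 0 in the other 8.

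Other regulators that act with Sox genes in the testis or in pluripotent cells were read in the same way. Of 9 tested genes for testis determination and Sertoli cells, 0 were higher in acRIP than with IgG and 2 were lower, Cyp26b1 and Dhh, by edgeR and by DESeq2 alike, and 1 and 7 had an unadjusted p under 0.05. Against input 2 were higher in acRIP, Cyp26b1 and Gata4, and 1 lower, Dhh. Of 6 tested pluripotency genes, Lin28a and Nanog were higher than both controls and Pou5f1 and Utf1 were lower than both. Nanog had 22, 32 and 20 counts in acRIP, 0 in each IgG library and 1, 0 and 3 in input, and Pou5f1 had 0 in each acRIP library, 16, 4 and 8 with IgG and 35, 12 and 17 in input. No library held more than 35 counts of either gene. The 7 late germ cell regulators, all abundant, gave 0 calls in either direction against IgG by either tool, although 6 were lower at an unadjusted edgeR p under 0.05. Against input, Rfx4 was called lower in acRIP (log2 fold change -1.45 ± 0.06, adjusted p = 1.57e-19). Mybl1 was called higher with IgG than in input (1.20 ± 0.08, adjusted p = 6.71e-14).

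Sox and T-box transcripts were rich in G and C. Their GC content had a median of 54.2%, from 35.3% in Tbx22 to 66.4% in Sox3, and 23 of 31 lay above the 50.1% median of tested protein-coding transcripts. The 6 members higher than both controls had 52.6% to 66.4% GC (median 58.8%) and the 5 lower than both had 46.5% to 60.9% (median 51.0%), so the ranges overlapped. Of 5 equal classes of tested protein-coding genes by GC, the highest had 20.1% of genes higher with IgG than in input and the others 10.4% to 11.8%, and 5 of the 9 tested members in the highest class were called so. Whether GC content had a part in the recovery of the members was not tested.

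**Figure D4:**
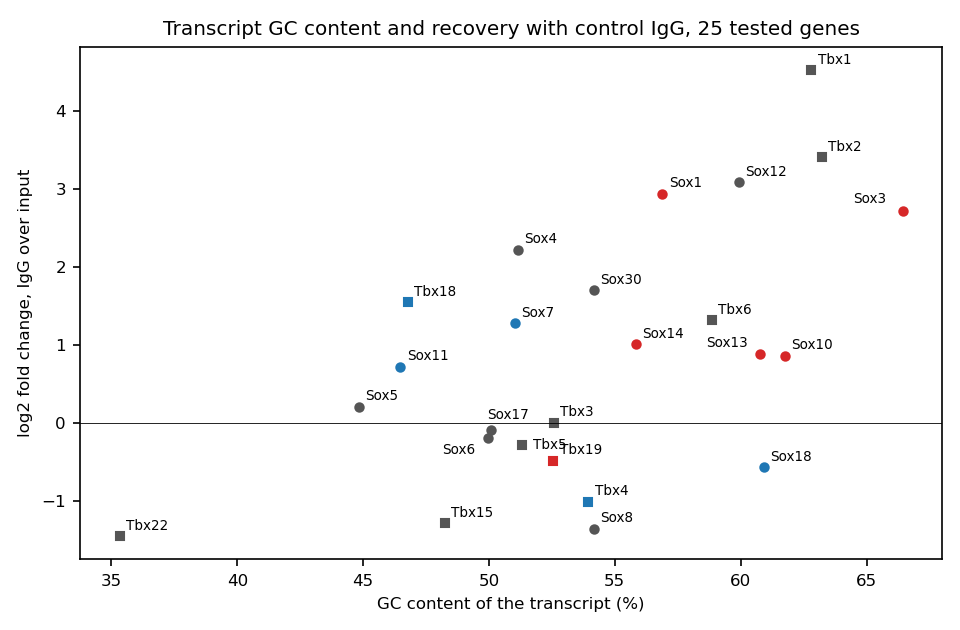
GC content of the longest coding transcript (x axis, percent) and log2 fold change of IgG over input (y axis) for the 25 tested genes, with circles for Sox and squares for Tbx genes. Red marks the 6 genes with more counts in acRIP than in both controls and blue the 5 with fewer. Tbx1, Tbx2, Sox12, Sox1 and Sox3 combine GC contents of 56.9% or more with the 5 highest values, while Sox18, at 60.9%, and Sox8, at 54.2%, lie below 0.

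Motif content did not separate the members by direction. Matches to CNCAGNNC per kilobase had a median of 1.002 (0.376 to 3.24) in the 6 genes higher than both controls and 0.909 (0 to 2.47) in the 5 lower than both, beside 0.631 in all tested protein-coding transcripts. Sox10 held 9 matches and Sox18 held 4, while Tbx18 and Sox15 held none. A related sequence named for a human embryonic kidney line is TCCCAGCT. It was present in 5 members, Sox3, Sox12, Sox13, Tbx5 and Tbx21, and in 12.8% of tested protein-coding transcripts.

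By a ratio of mean FPKM + 1 over 2 against both controls, without the p-value that the study's selection also required, 722 of 35699 genes with a count passed (2.02%), and Sox10 was the 1 member that did. Its mean rose from 0.149 ± 0.0788 FPKM in input and 0.270 ± 0.107 with IgG to 1.92 ± 0.368 in acRIP (SD, n = 3). Adding 1 to values this small lowers the ratio, and with 0.1 added instead Sox3, Sox13, Sox14 and Tbx19 passed as well. Without IgG replicate 2 or acRIP replicate 3 Sox14 also passed, and without IgG replicate 3 Sox3 did.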

How the data were processed

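The authors trimmed reads with Trim Galore 0.6.7, mapped them to mm10 with STAR 2.7.10a and counted uniquely mapped reads per gene with featureCounts 2.0.2, per the submitters' processing notes. The authors deposited raw counts in one table with each gene's merged exon length in bases (another unit). Strand use, annotation release and whether both mates were counted are not given in the sources used here. Columns of per-sample values not used numbered 0. The members and lists were chosen with earlier results of these data known.

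Symbols came from GENCODE vM21 by unversioned identifier (55141 of 55401 matched, and all 31 members had identical coordinates). Groups came from the labels. Counts were tested in R 4.3.3 with edgeR 4.0.16, after its filterByExpr filter and TMM scaling, with 1 mean per group over 9 libraries and its quasi-likelihood test. On simulated counts with 200 genes changed 4-fold among 22510, edgeR recovered 95% and called 0 unchanged genes. The changed genes were drawn only from those above a minimum mean count. The 95% therefore does not cover the scarcest members, among them Sox1, Sox3, Sox7, Sox11, Tbx4 and Tbx18, with means of 7 to 19.6 counts. All of these named genes were called against both controls. Full values are given for members called the same way or opposite ways against both controls, the 6 highest in input, and those at 3 counts or fewer throughout a group and above 10 throughout another. A group at 0 counts was set to 3 counts per library. GC and motifs were read in the transcript with the longest coding sequence.

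Alternatives were DESeq2 1.42.0, other normalizations and filters, a test against a fold change of 2, 6-library fits, a replicate block, halved counts, FPKM pseudocounts and leaving out each library. Floors of 6 counts, bounds without 1 library and transcript lengths joined later, chosen after seeing the data. Peaks, tracks and HEK293T libraries were not analysed here. The list of Schwann cell and nerve markers is not reported here.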

Additional observations from a re-analysis of the deposited data

How the results depend on the processing

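The same 6 higher and 5 lower genes against both controls were found with DESeq2, RLE or upper quartile normalization, no filter on low counts, 6-library fits and halved counts. A test against a fold change of 2 kept 4 and 4 (Sox1, Tbx19 and Sox11 lost) and called 0 members lower with IgG than in input. A filter of 10 counts in every library of a group left Sox11 and Tbx4 untested, with 3 members lower than both controls and 3 lower than input. Leaving out 1 library gave 5 to 7 higher and 4 to 5 lower. Over all member fold changes and alternatives, 1272 kept direction and side of the threshold, 44 lost it, 10 gained it and 15 changed sign, all uncalled. Part of these values could hardly change. Leaving out a library of the group not compared barely moves a fold change, and the test against a fold change of 2 reuses the same ones. The tally therefore overstates how firm the values are. The median over IgG was 0.10 with upper quartile normalization. The median over input was 0.21 with no filter, 0.76 with the filter of 10 counts and 0.28 to 0.54 without 1 library. The median of IgG over input was -0.021 with no filter and 0.26 to 0.99 without 1 library. The FPKM rule passed 5 members with a pseudocount of 0.1, 0 with a ratio to IgG over 5 and 1 to 2 without 1 library. The cause of these changes was not tested. Values that changed sign when 1 library was left out ranged, over IgG, from -0.27 to 0.33 for Tbx2 and from -0.75 to 0.11 for Tbx3. Over input they ranged from -0.13 to 0.18 for Sox8 and from -0.74 to 0.11 for Tbx3. For IgG over input they ranged from -0.027 to 1.23 for Sox11, from -0.17 to 0.078 for Sox17, from -0.16 to 2.15 for Tbx6 and from -0.35 to 0.26 for Tbx3, and Tbx3 was -0.0041 by DESeq2, -0.091 with upper quartile normalization and -0.021 with no filter. A floor of 6 counts lowers the bounds to at least 9.48-fold (input) and 6.39-fold (IgG) for Sox18, 2.49 and 1.30 for Tbx4, 1.27 and 3.62 for Tbx18, and 24.0 for Tbr1.

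Same-numbered libraries correlated at -0.00659 to 0.0351 in their deviations from group means, and differently numbered ones at -0.0295 to 0.0271. Of the 9 libraries, 6 correlated best with their own number. Correlations this small cannot decide whether the numbers pair the libraries. With the number as a block, 5 members were higher (Sox1 at adjusted p = 0.0578) and 5 lower than both controls, 4 member calls were lost and 1 was gained. Low counts limit most members, since 20 of the 25 tested had a mean under 106 counts.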
